A study of Mus musculus with 10 samples.

Results

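The genes described here are 9 components of transforming growth factor beta (TGF-beta) signalling: the ligands Tgfb1, Tgfb2 and Tgfb3, the receptors Tgfbr1, Tgfbr2 and Tgfbr3, the receptor-activated transcription factors Smad2 and Smad3, and Skil, a repressor of Smad activity. They were taken by symbol from a table of 19965 measured genes, and all 9 were found. The mice carried 1 copy of a Sox1-GFP reporter (Sox1-GFP heterozygotes), in which green fluorescent protein follows Sox1, a SoxB1 transcription factor that neural stem cells and progenitors express. Cells of the hippocampus, dissociated with papain, were sorted into those with high GFP and those without it. There were 4 GFP-positive samples of mice aged 1 year 9 months (old), 3 GFP-positive samples of mice aged 7, 5 and 4 months (young, replicates 1, 2 and 3) and 3 GFP-negative samples of mice aged 7, 7 and 4 months. All groups shared the genotype and had no treatment. GFP-negative cells of old mice were not analysed here, so that age was compared in GFP-positive cells only. The study's design text puts the youngest mice at 5 months, but 1 title in each young group says 4 months, and the titles were followed.

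In this pathway a dimeric ligand, secreted in a latent form held by its own propeptide and by binding proteins of the matrix, is released and binds the type II receptor Tgfbr2. Tgfbr2 then activates the type I receptor Tgfbr1, a kinase that phosphorylates Smad2 and Smad3, which join Smad4 and enter the nucleus. Among the genes they induce are brakes on the pathway itself, such as Smad7, Skil, Pmepa1 and Ldlrad4. In the brain TGF-beta maintains the mature state of microglia, takes part in vessel integrity, and limits the division of adult neural progenitors.

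Of the 9 genes, 6 differed between young GFP-positive and GFP-negative cells: Tgfb1, Tgfb3, Tgfbr1, Tgfbr2 and Skil were lower and Tgfb2 was higher in GFP-positive cells (limma over all 19965 genes, Benjamini-Hochberg adjusted p under 0.05). By the same test 17.0% of all genes differed, 9.30% lower and 7.68% higher. At an unadjusted p under 0.05 there were 7 members, Smad3 being the other, and 30.4% of all genes. Tgfbr1 and Skil had the largest differences, 5.99-fold and 6.04-fold. Between old and young GFP-positive cells 0 of the 9 genes passed the test, as against 0.0150% of all genes. Values are log2 expression on arrays normalised by Robust Multichip Average (RMA), differences are GFP-positive minus GFP-negative or old minus young, and SE is limma's moderated standard error.

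**Figure D1:**
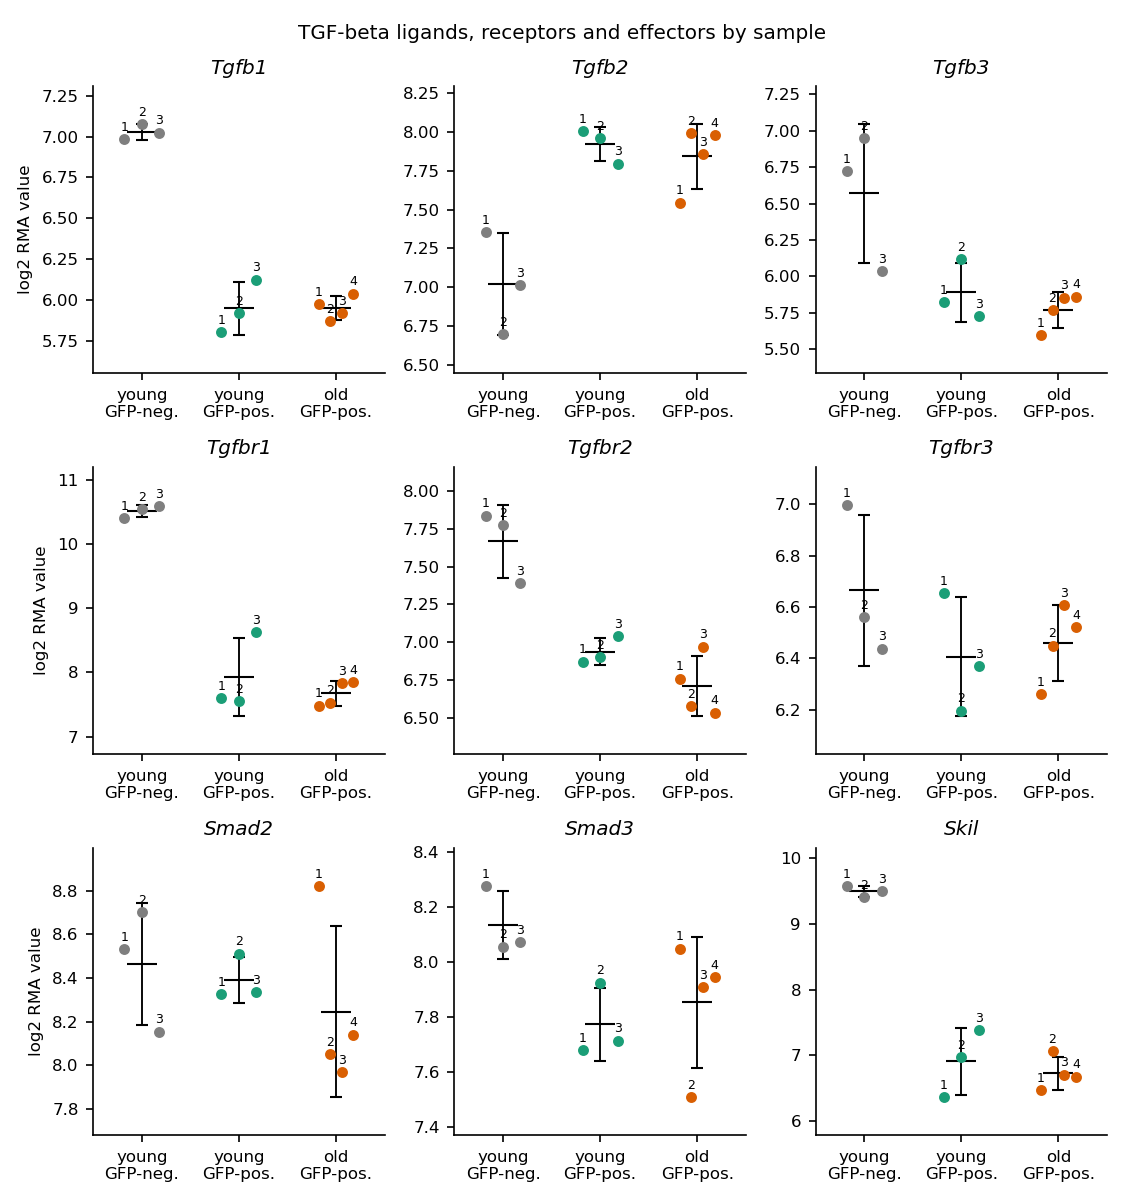
Each panel plots the log2 RMA value of 1 gene (vertical axis, own scale) in each of the 10 samples, with replicate numbers beside the points and bars for the group mean ± SD. Tgfb1, Tgfbr1, Tgfbr2 and Skil lie lower in every GFP-positive sample than in every GFP-negative one, as does Smad3 by a very narrow gap. Tgfb2 lies higher, and old and young GFP-positive points overlap in all 9 panels.

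The labels call the GFP-positive cells neural stem and progenitor cells of the subgranular zone, and the markers of the fractions were compared before the members. Of 13 astrocyte markers 13 were higher in young GFP-positive cells, and Aqp4, the astrocyte water channel, had a mean of 10.91 against 7.09. Of 7 stem and progenitor markers 3 were higher and 0 lower, and Sox1 itself did not pass the test (0.28 ± 0.11, SE, limma adjusted p = 0.123). Of 14 microglia markers 13 were lower, of 11 endothelial markers 10 and of 10 mature oligodendrocyte markers 10. The marker levels summed on the linear scale lay between 9724 and 14305 in GFP-negative and between 1084 and 1658 in young GFP-positive samples for microglia, and between 20541 and 25418 against 3269 to 6471 for mature oligodendrocytes. The endothelial sums were 1833 to 6427 against 597 to 903. Of these markers the microglial Csf1r lay between 5.76 and 7.17 in young GFP-positive samples, the endothelial Cldn5 between 6.10 and 6.96 and the myelin gene Mog between 6.41 and 7.55. Of 10 mural and fibroblast markers 5 were lower and 1 higher, of 6 oligodendrocyte precursor markers 6 were lower, of 9 mature neuron markers 2 were lower and 1 higher, and of 4 blood markers 3 were lower. Most or all of the astrocyte, microglia, endothelial, mature oligodendrocyte and oligodendrocyte precursor markers thus differed between the fractions compared here. The part of any of these markers in the differences between the fractions was not tested. In sorted bulk samples fewer cells of a type and less RNA per cell cannot be told apart. Choroid plexus RNA stood apart in replicate 1 of both young fractions, where Ttr, the main secreted protein of that tissue, had 12.59 and 12.69 against 5.88 to 9.53 in the other young samples. Calls of members and named genes that were lost without these 2 samples are given with and without them.

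**Figure D2:**
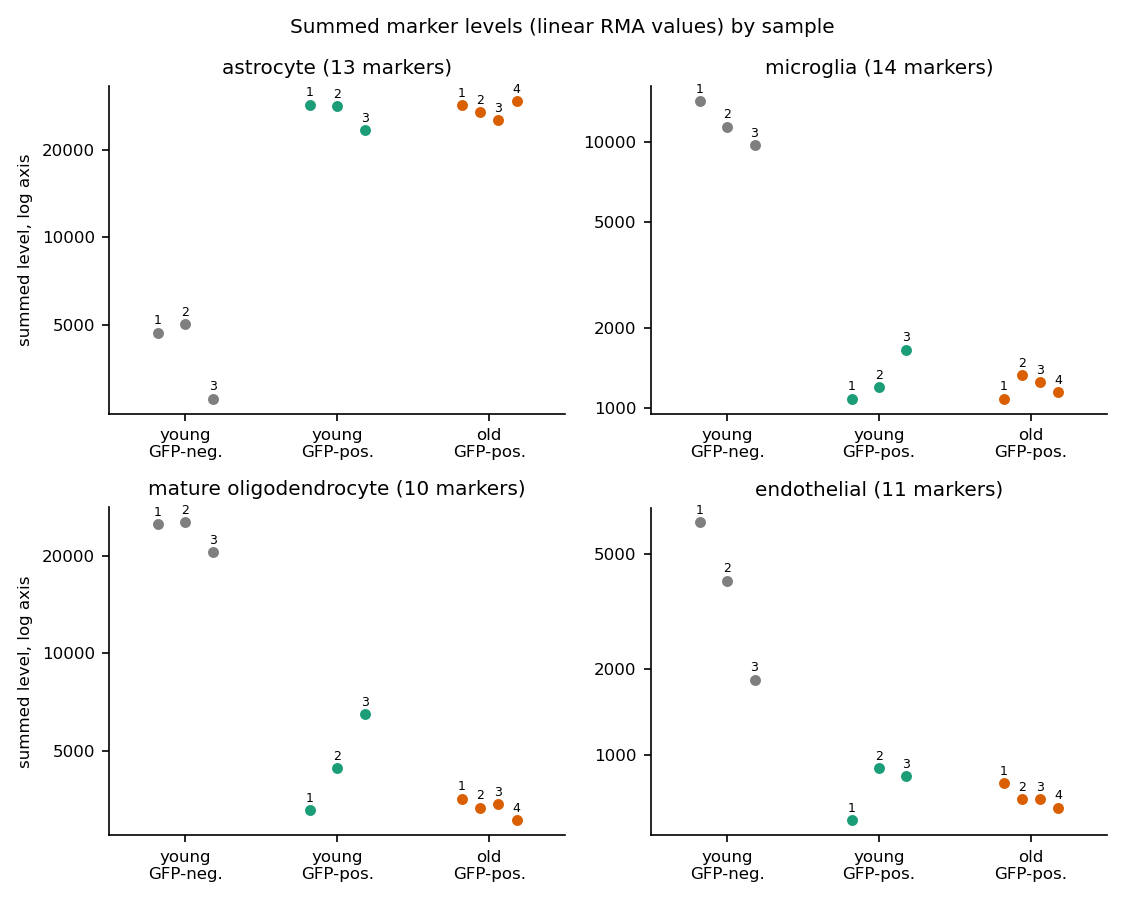
Summed linear marker levels (vertical axis, log scale) of 4 cell types in each of the 10 samples, numbered by replicate. GFP-positive samples have the higher astrocyte sums and the lower microglia, mature oligodendrocyte and endothelial sums, and young GFP-positive replicate 3 has the highest microglia (1658) and oligodendrocyte (6471) sum of the 7 GFP-positive samples.

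Promoters are shown for those genes that changed between the young fractions and had an entry. Of these Tgfb1, Tgfbr1 and Tgfbr2 were lower in GFP-positive cells and Tgfb2 higher, and the part of promoter sequence in these directions was not tested. RefSeq entries on the build GRCm38.p6 were found for 5 of the 9 genes. None was found for Tgfb3 and Skil, which also changed. The promoters of the 4 changed genes with an entry are printed as the 250 bases before the start, 5′ to 3′ on the strand of the gene. The starts of Tgfb1, Tgfbr1 and Tgfbr2 are the outermost of the gene in RefSeq, whereas that of Tgfb2 lies inside the annotated gene, so its window is not the one before the outermost start. Capitals mark the Smad box CAGAC (or GTCTG on the other strand) and the GC box GGGCGG (or CCGCCC), which were searched on both strands and do not overlap each other here.
Tgfb1, chr7:25686752-25687001, plus strand: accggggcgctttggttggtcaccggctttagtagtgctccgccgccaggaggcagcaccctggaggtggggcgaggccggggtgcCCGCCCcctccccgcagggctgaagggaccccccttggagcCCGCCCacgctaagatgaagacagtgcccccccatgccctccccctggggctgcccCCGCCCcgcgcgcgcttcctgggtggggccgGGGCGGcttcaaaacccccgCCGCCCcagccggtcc
Tgfbr1, chr4:47352972-47353221, plus strand: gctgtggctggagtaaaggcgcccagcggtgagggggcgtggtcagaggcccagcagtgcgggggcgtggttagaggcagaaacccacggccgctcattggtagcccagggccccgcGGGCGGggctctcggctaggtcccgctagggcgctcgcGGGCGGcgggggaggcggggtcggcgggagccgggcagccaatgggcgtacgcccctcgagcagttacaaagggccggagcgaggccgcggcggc
Tgfbr2, chr9:116175364-116175613, minus strand: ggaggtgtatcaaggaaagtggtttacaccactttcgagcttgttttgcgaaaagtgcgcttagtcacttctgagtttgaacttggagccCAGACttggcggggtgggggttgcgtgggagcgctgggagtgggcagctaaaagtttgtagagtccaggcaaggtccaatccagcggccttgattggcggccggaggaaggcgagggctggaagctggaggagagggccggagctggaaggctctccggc
Tgfb2, chr1:186705990-186706239, minus strand: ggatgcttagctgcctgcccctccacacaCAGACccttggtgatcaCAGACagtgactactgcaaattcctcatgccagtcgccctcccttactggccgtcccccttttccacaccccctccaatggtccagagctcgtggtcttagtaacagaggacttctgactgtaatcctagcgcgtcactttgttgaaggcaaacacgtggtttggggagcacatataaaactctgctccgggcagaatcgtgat
Tgfb1 had 5 GC boxes and Tgfbr1 had 2, and neither had a Smad box in this window. A second RefSeq start of Tgfbr1, not printed, had 1 Smad box. Tgfbr2 had 1 Smad box, starting 160 bases before the start, and Tgfb2 had 2, starting 221 and 204 bases before it, and both had 0 GC boxes. Of all 32851 promoters of the table, cut to the same length, 42.2% held a Smad box and 32.7% a GC box. The TATA box TATAAA was found in 12.4% of them, and among the 4 printed only in Tgfb2, and the AP-1 motif TGANTCA, found in 6.7%, in none of the 4. GC content was 75.2% for Tgfb1, 74.8% for Tgfbr1, 58.4% for Tgfbr2 and 53.6% for Tgfb2, where the median of all promoters was 52.4%. These matches describe the letters of the windows and say nothing of factors bound there.

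The ligands split by sort fraction. Tgfb1, the isoform most studied in immune and glial cells, had values of 6.98, 7.08 and 7.02 in GFP-negative replicates 1, 2 and 3 and 5.80, 5.92 and 6.12 in the GFP-positive ones. The fractions did not overlap, which was also so for 38.9% of all genes (15.0% lower and 23.9% higher in GFP-positive cells), and each varied by less than the distance between them. Tgfb1 was 2.11-fold lower in GFP-positive cells, a log2 difference of -1.08 ± 0.11 (SE, 95% interval -1.33 to -0.83, limma adjusted p = 5.35e-05).

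Tgfb2, the isoform that binds Tgfbr2 poorly without a co-receptor, went the other way. Its values were 7.35, 6.70 and 7.01 in GFP-negative and 8.01, 7.96 and 7.80 in GFP-positive replicates 1, 2 and 3. All GFP-positive samples lay above all GFP-negative ones. The log2 difference of 0.90 ± 0.17 (SE, 95% interval 0.51 to 1.28, limma adjusted p = 0.00409) is a 1.86-fold higher level, and Tgfb2 was the 1 gene of the 9 that was higher in GFP-positive cells. Tgfb1 and Tgfb2 thus changed in opposite directions between the same 6 samples, each beyond its own replicate spread.

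Tgfb3, the third ligand, was 6.72, 6.95 and 6.04 in GFP-negative and 5.82, 6.12 and 5.73 in GFP-positive replicates 1, 2 and 3. GFP-negative replicate 3 fell below GFP-positive replicate 2, so the fractions overlapped. Its log2 difference of -0.68 ± 0.21 (SE, limma adjusted p = 0.0459) was close to the threshold. The call was lost without GFP-positive replicate 1 (-0.65, limma adjusted p = 0.123) or 3 (-0.60, 0.131), without GFP-negative replicate 1 (-0.60, 0.152) or 2 (-0.49, 0.175) and without both choroid plexus-high samples (-0.57, 0.289). It was also lost when only the 2 fractions were fitted (limma adjusted p = 0.102), after quantile normalization (0.0641) and in a permutation test of the type the submitters name (q = 0.0661).

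Both signalling receptors were lower in GFP-positive cells. Tgfbr1, the type I receptor kinase that phosphorylates Smad2 and Smad3, had 10.40, 10.54 and 10.58 in GFP-negative and 7.60, 7.56 and 8.62 in GFP-positive replicates 1, 2 and 3. GFP-positive replicate 3 lay about 1 log2 unit above the other GFP-positive samples and still well below every GFP-negative one. The log2 difference was -2.58 ± 0.25 (SE, 95% interval -3.12 to -2.04, limma adjusted p = 2.58e-05), and -2.93 without that replicate. By size it ranked 214th of the 19965 genes in this comparison.

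Tgfbr2, the type II receptor that binds the ligand, had 7.84, 7.77 and 7.39 in GFP-negative and 6.87, 6.90 and 7.04 in GFP-positive replicates 1, 2 and 3. The fractions did not overlap. The log2 difference of -0.73 ± 0.15 (SE, 95% interval -1.07 to -0.39, limma adjusted p = 0.00651) was smaller than that of Tgfbr1. Without both choroid plexus-high samples it was -0.61 and no longer passed (limma adjusted p = 0.0949). A second Tgfbr2 transcript was read by a dimmer probe set, at 7.80, 7.78 and 7.28 in GFP-negative and 6.85, 6.88 and 7.00 in GFP-positive samples, in the same order of fractions. Probes shared by both probe sets were not looked for, so these values are not taken as a separate measurement.

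Tgfbr3, or betaglycan, the co-receptor that presents Tgfb2 to Tgfbr2, had 7.00, 6.56 and 6.44 in GFP-negative and 6.66, 6.20 and 6.37 in GFP-positive replicates 1, 2 and 3. The fractions overlapped. The difference of -0.26 did not pass the test (95% interval -0.63 to 0.12, limma adjusted p = 0.326), and the interval leaves room for a modest change in either direction.

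**Figure D3:**
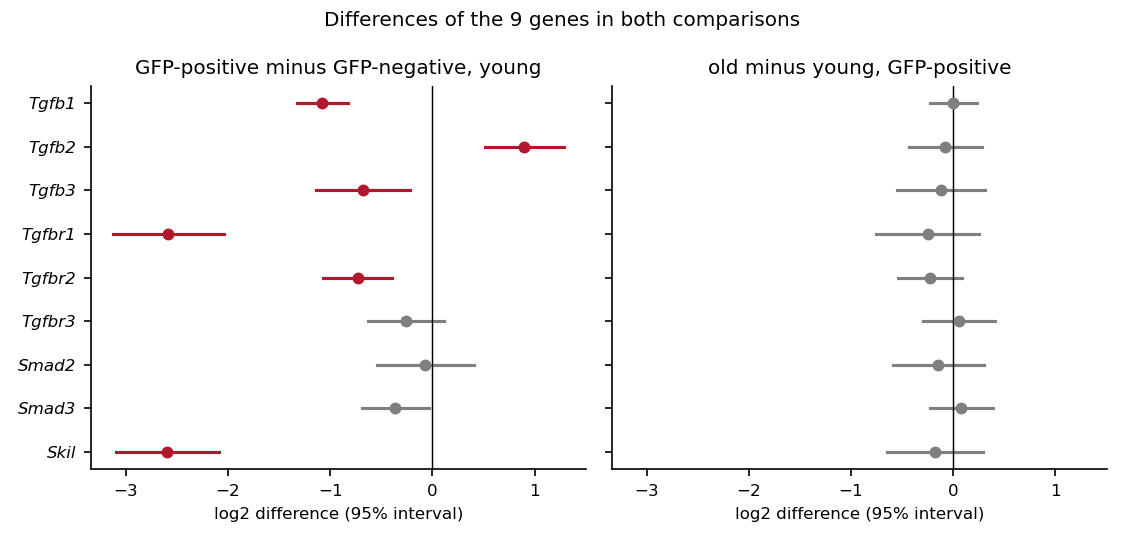
Log2 differences (horizontal axis) of the 9 genes with 95% intervals, GFP-positive minus GFP-negative in young mice on the left and old minus young in GFP-positive cells on the right, with genes past the test in red. Tgfbr1 (-2.58) and Skil (-2.59) are farthest from 0 on the left, Tgfb2 (0.90) is the one red gene above 0, and all 9 intervals on the right include 0.

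The effectors differed among themselves. Smad2 had 8.53, 8.70 and 8.16 in GFP-negative and 8.33, 8.51 and 8.34 in GFP-positive replicates 1, 2 and 3, with full overlap and a difference of -0.07 (95% interval -0.55 to 0.40, limma adjusted p = 0.839). Smad3 had 8.28, 8.06 and 8.07 against 7.68, 7.93 and 7.71. All Smad3 values of GFP-positive cells lay below those of GFP-negative cells, but the difference of -0.36 ± 0.15 (SE, 95% interval -0.69 to -0.03) did not pass after adjustment over all genes (limma adjusted p = 0.130).

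Skil, which encodes SnoN, binds Smad proteins and represses their targets, and its own gene is a target of the pathway. It had 9.58, 9.41 and 9.50 in GFP-negative and 6.36, 6.97 and 7.38 in GFP-positive replicates 1, 2 and 3. The lowest GFP-negative value was 2.03 log2 units above the highest GFP-positive one. The log2 difference was -2.59 ± 0.23 (SE, 95% interval -3.10 to -2.09, limma adjusted p = 1.55e-05), rank 210 of 19965 by size. A second Skil transcript gave 9.42, 9.25 and 9.41 against 6.28, 6.85 and 7.24, in the same order. Whether its probe set shares probes with the first was not checked, so it is not taken as a separate measurement.

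The members were also compared within the young GFP-positive group. Tgfbr1, Skil, Tgfb1 and Tgfbr2 had their highest value in replicate 3, Tgfb2 and Tgfb3 their lowest, and Tgfbr3, Smad2 and Smad3 their middle one. The share of all genes highest in that sample was not counted. Replicate 3 was also the 4-month-old GFP-positive sample. In that sample the summed mature oligodendrocyte markers were 6471, against 3269 and 4420 in replicates 1 and 2, and the summed microglia markers 1658, against 1084 and 1198. The part of these cells, or of age, in the values of the members was not tested. The SD of Tgfbr1 in young GFP-positive samples was 0.60 and that of Skil 0.51, against a median of 0.16 over all genes, while Tgfb1 in GFP-negative samples had the lowest SD of the members there, 0.05.

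The other genes of the pathway were read from 5 lists with 66 genes in all. In the sort comparison 8 were higher and 14 lower in GFP-positive cells, 17.0% being the share over all genes, and the median difference was -0.16 against 0.10 over all genes. The other 44 did not pass the test. Without both choroid plexus-high samples 4 of the 66 were higher and 10 lower, with a median of -0.15.

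Of 15 Smad partners and regulators 5 were lower and 1 higher, with a median of -0.34, and 4 were lower and 0 higher without both choroid plexus-high samples, where Nedd4l and Ppm1a lost their calls. Smad7, which blocks the type I receptor, was 7.98, 7.88 and 7.80 in GFP-negative and 6.36, 6.48 and 6.69 in GFP-positive replicates 1, 2 and 3 (-1.37 ± 0.13, SE, limma adjusted p = 2.29e-05). Tgif1, a co-repressor of Smad complexes, was 9.67, 9.11 and 9.30 against 7.04, 6.81 and 7.36 (-2.29, limma adjusted p = 0.000319). Both genes had fractions far apart. Fkbp1a, the immunophilin that holds Tgfbr1 inactive, had a difference of -0.88 ± 0.15 (SE, limma adjusted p = 0.00163), and Pmepa1, a membrane inhibitor of Smad signalling, had a difference of -0.99 ± 0.19 (SE, limma adjusted p = 0.00381), which was -0.64 without both choroid plexus-high samples (limma adjusted p = 0.0353). The 1 higher gene, named after its values were seen, was Nedd4l, a ubiquitin ligase (1.11, limma adjusted p = 0.00720). Its call was lost without both choroid plexus-high samples (1.07, limma adjusted p = 0.0681) and without both 4-month-old samples (0.74, limma adjusted p = 0.0585).

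Of 20 transcriptional targets 6 were lower and 0 higher, with a median of -0.34, and 4 were lower without both choroid plexus-high samples, where Tgfbi and Tsc22d1 lost their calls. Ldlrad4, a target that restrains Smad phosphorylation, was 8.30, 8.50 and 8.18 in GFP-negative and 7.01, 7.02 and 6.98 in GFP-positive replicates 1, 2 and 3 (-1.33 ± 0.12, SE, limma adjusted p = 1.86e-05). Cdkn1a, the cell cycle inhibitor p21 and also a p53 target, had a difference of -2.29 (limma adjusted p = 0.000403). Fn1, fibronectin, which vessels also express, had -1.83 (limma adjusted p = 0.00149). The other 14 targets did not pass the test.

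Genes of latency and activation split, with 3 of 15 higher, 2 lower and a median of 0.06. Mmp14, a membrane metalloproteinase that can release latent TGF-beta, was 6.84, 6.45 and 6.54 in GFP-negative and 9.06, 8.53 and 8.23 in GFP-positive replicates 1, 2 and 3 (95% interval of the difference 1.58 to 2.42, SE 0.19, limma adjusted p = 2.83e-05). The latent TGF-beta binding protein Ltbp1, which anchors the latent complex in the matrix, was higher by 1.07 (limma adjusted p = 0.000893). Its relative Ltbp4 had the opposite sign (-0.73, limma adjusted p = 0.00178), as had the secreted metalloproteinase Mmp2 (-0.71, limma adjusted p = 0.00385). The third higher gene, named after its values were seen, was Ltbp3 (0.51, limma adjusted p = 0.0140). Its call was lost without GFP-negative replicate 1 (0.46, limma adjusted p = 0.0583), without both choroid plexus-high samples (0.48, 0.119) and without both 4-month-old samples (0.52, 0.0555). Binding proteins of 1 family therefore stood on both sides, as did the metalloproteinases Mmp14 and Mmp2.

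Of 10 other receptors and receptor regulators 2 were higher and 1 lower, with a median of -0.05. Vasn, a membrane protein that traps TGF-beta (0.49, limma adjusted p = 0.0349), Cd109, a surface co-receptor that dampens signalling (0.56, limma adjusted p = 0.0448), and the endothelial co-receptor Eng (-0.75, limma adjusted p = 0.0499) were all close to the threshold. Vasn lost its call without replicate 1 or 2 of either fraction (limma adjusted p from 0.105 to 0.124), as did Cd109 (0.0531 to 0.151, with a difference of 0.37 without GFP-positive replicate 2) and Eng, the latter except for GFP-positive replicate 2 (0.139 to 0.183), and also without GFP-positive replicate 3 (0.131). Without both choroid plexus-high samples the calls of Vasn (0.41, limma adjusted p = 0.259), Cd109 (0.61, 0.138) and Eng (-0.41, 0.385) were lost.

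Of 6 activin ligands and follistatins 2 were higher and 0 lower, with a median of 0.37. Over all genes 7.68% were higher and 9.30% lower, with a median of 0.10. Inhba, the activin A subunit, whose receptors also signal through Smad2 and Smad3, was 6.04, 6.88 and 6.89 in GFP-negative and 7.92, 7.63 and 7.91 in GFP-positive replicates 1, 2 and 3 (1.22 ± 0.22, SE, limma adjusted p = 0.00262). Gdf11, a related ligand, had 6.83, 6.82 and 6.88 against 7.60, 7.84 and 7.57 (0.82, limma adjusted p = 0.00530). In both genes the GFP-positive samples lay above all GFP-negative ones, as was so for 23.9% of all genes.

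**Figure D4:**
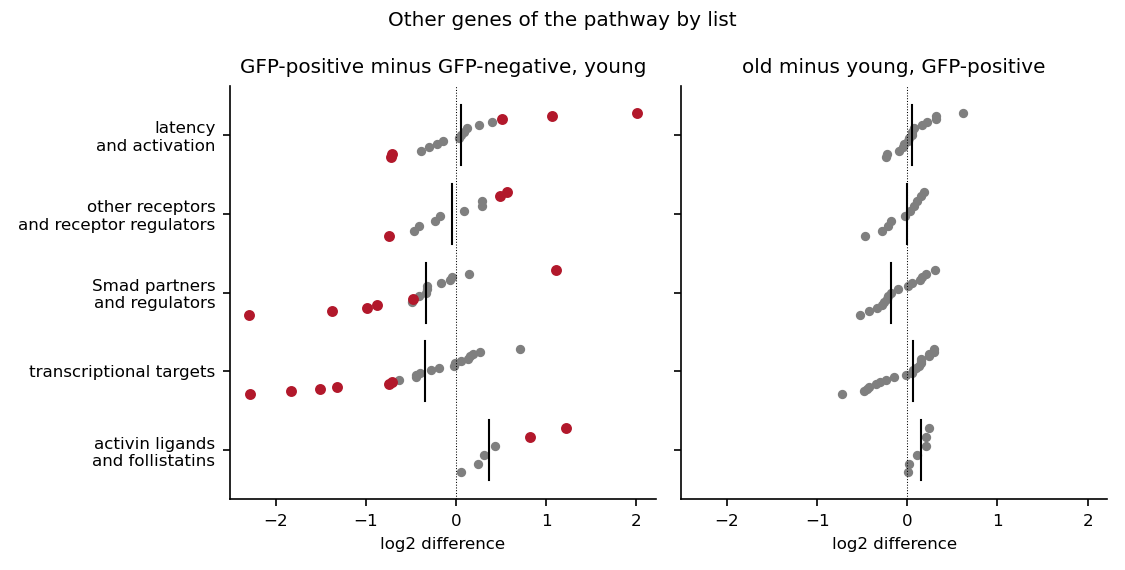
Log2 differences (horizontal axis) of the 66 other pathway genes by list, 1 point a gene, with genes past the test in red and the list's median as a vertical bar. In the sort comparison on the left red points lie on both sides of 0, all 6 red targets below it and both red activin-family ligands above it, and the age comparison on the right has no red point.

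The age comparison asked whether the pathway differs between GFP-positive cells of old and young mice. By limma 0 of 9 members passed, 0 had an unadjusted p under 0.05, where 10.2% of all genes did, and 0 were called by the permutation test of the submitters' type. For 0 members were the groups apart, as against 10.9% of all genes (6.85% higher and 4.06% lower in old samples). The differences lay between -0.25 and 0.08, with 95% intervals that together ran from -0.76 (Tgfbr1) to 0.40 (Tgfbr3). Beside them, 10 of 10 mature oligodendrocyte markers had differences below 0, with a median of -0.50, 3 of them at an unadjusted p under 0.05 and 0 passing limma's adjusted test. The summed choroid plexus and ependymal markers lay between 548 and 699 in old and between 609 and 7559 in young GFP-positive samples. The part of these markers in the age differences was not tested. A p above the threshold does not show that the ages are alike, but these intervals bound the change of each gene.

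Old GFP-positive replicates 1 to 4 had Tgfb1 at 5.97, 5.87, 5.92 and 6.04 and a mean difference from young of 0.002 (95% interval -0.23 to 0.23, limma adjusted p = 0.995). Tgfb2 had 7.54, 7.99, 7.86 and 7.98 in the same samples (-0.08, 95% interval -0.44 to 0.28, limma adjusted p = 0.865). The old values of both ligands lay among or close to the young ones, apart from the low Tgfb2 value of replicate 1. Tgfb3 had 5.60, 5.77, 5.85 and 5.86 (-0.12, limma adjusted p = 0.821).

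Of the receptors, Tgfbr1 had 7.48, 7.53, 7.83 and 7.85 in old samples (-0.25, 95% interval -0.76 to 0.25, limma adjusted p = 0.688). That difference came with the high value of young replicate 3, and it was 0.10 without that sample (limma adjusted p = 0.788). Tgfbr2 had 6.76, 6.58, 6.97 and 6.53 (-0.23, 95% interval -0.54 to 0.09, limma adjusted p = 0.589), the member with the smallest unadjusted p, 0.142. Old replicates 1, 2 and 4 lay below all young samples and replicate 3 lay among them. Tgfbr3 had 6.26, 6.45, 6.61 and 6.52 (0.05, limma adjusted p = 0.912).

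Of the effectors, Smad2 had 8.82, 8.05, 7.97 and 8.14 in old samples (-0.15, 95% interval -0.59 to 0.30, limma adjusted p = 0.788). Old replicate 1 lay above all young GFP-positive samples and the other 3 below them, and the difference was -0.34 without it (limma adjusted p = 0.545). Smad3 had 8.05, 7.51, 7.91 and 7.95 (0.08, limma adjusted p = 0.834), and Skil 6.46, 7.06, 6.70 and 6.67 (-0.18, 95% interval -0.65 to 0.29, limma adjusted p = 0.753). The Skil difference was 0.06 without young replicate 3. That sample was the 4-month-old one and also had the highest oligodendrocyte and microglia sums. Age and marker content cannot be told apart there, and their part in the difference was not tested.

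Of the 66 other pathway genes 0 passed in the age comparison by limma or the permutation test, and 7 had an unadjusted p under 0.05, where 10.2% of all genes did, a share near that of the lists. The values that follow are therefore descriptions. The smallest unadjusted p values were those of Vasn (-0.46, unadjusted p = 0.00491, limma adjusted p = 0.298) and Itgb8, the integrin chain that releases latent TGF-beta in brain (0.62, unadjusted p = 0.00735, limma adjusted p = 0.332). Itgb8 had 10.70, 10.38, 10.32 and 10.39 in old and 9.87, 10.20 and 9.43 in young replicates, without overlap. Vasn had 7.10, 7.38, 7.20 and 7.46 in old and 7.87, 7.86 and 7.51 in young ones, also without overlap. In all, the groups were apart for 9 of the 66 genes, these included, and for 10.9% of all genes (6.85% higher and 4.06% lower in old samples). Ldlrad4 (-0.34), Dab2 (-0.52), an adaptor of TGF-beta receptors, Zfyve9 (-0.34), which brings Smads to the receptor, Ccn2 (0.29), a matrix-associated target, and the secreted metalloproteinase Mmp9 (0.32) made up the other 5, with limma adjusted p from 0.371 to 0.486. In the remaining list Mstn (0.21, limma adjusted p = 0.509) and Fst (0.24, 0.527) came closest, and among the receptors after Vasn Acvr2a (-0.28, 0.629). The young GFP-positive samples serve in both comparisons, so that values of 1 gene in the 2 comparisons are not independent.

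Set beside the GFP-negative samples, which differ from them in both age and fraction so that the 2 cannot be told apart, the old GFP-positive samples had the same order as the young ones. The values of 7 of the 9 genes did not overlap, as was so for 45.8% of all genes (29.8% higher and 16.0% lower in old samples). They were the 6 genes that differed between the young fractions and Smad3. For Smad3 the gap was very narrow, with 8.049 as the highest old and 8.057 as the lowest GFP-negative value. For Tgfbr1 the old samples lay between 7.48 and 7.85 and the GFP-negative ones between 10.40 and 10.58, and for Skil between 6.46 and 7.06 against 9.41 to 9.58. For Tgfb2 the order was turned, with 7.54 to 7.99 against 6.70 to 7.35.

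The genes whose centred values over the 10 samples were nearest to those of each changed member, by root mean square difference in log2 units, were different for each. For Skil they were Cldn11 (0.14), Tmem63a (0.15) and Ccp110 (0.21), over a range of Skil of 3.22. For Tgfbr1 they were C1ql3 (0.19), Brinp1 (0.21) and Cnp (0.21), over a range of 3.10. For Tgfb1 they were Tanc2 (0.08), Kazn (0.08) and Slc25a13 (0.10), and for Tgfb2 they were Oscp1 (0.13), Tbcel (0.14) and Irak2 (0.14). Tgfbr2 was nearest to Mob2 (0.11), Bub3 (0.13) and Cdc42ep1 (0.13), and Tgfb3 to Npcd (0.12), Btbd3 (0.13) and Enpep (0.14). The 10 samples share their normalization and the difference between fractions, and the likeness is a description of these arrays.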

How the data were processed

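Per the series description and the submitters' processing notes, the authors normalised Affymetrix Mouse Gene 1.0 ST arrays by RMA, with probes regrouped by RefSeq transcripts of mm9, and removed 1 array of a young mouse. The deposited values are log2 expression, 1 column per array. For RMA no version is stated in the labels. The quantile step removes differences in total signal, and the values give no detection call, so that low values cannot be told from no expression. The number of arrays limits the precision. Array medians over genes lay between 6.54 and 6.67.

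Of 31672 probe sets, 24590 matched 1 symbol in a RefSeq table of GRCm38.p6 and 7082 none. The brightest probe set stood for each of 19965 genes. Groups came from the titles, which name biological replicates. One limma 3.58.1 fit in R 4.3.3 of 3 group means over 10 samples (lmFit, eBayes, 7 residual degrees of freedom, two-sided) was adjusted by Benjamini-Hochberg over all genes, called at 0.05, and checked on simulated data. SAM, named by the submitters, was replaced by a permutation test of its type at a false discovery rate of 5%. Other alternatives concerned filters, probe sets, variance models, normalization and samples left out. Named pathway genes were up to 4 per list and comparison by p, or 2 where none passed, plus nearest genes (3 per changed member) and marker genes. One gene that this rule names is not reported here. The members and lists were chosen with earlier results of these data known. Of the 5 blood markers listed, Hba-a1 was not used here. Figures used matplotlib 3.10.9.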

Additional observations from a re-analysis of the deposited data

Results flagged for a closer look

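Among the 4 old GFP-positive samples, 44 results were looked at for a sample far from the others (gap over range above Dixon's critical value of 0.829), and 2 had one, both in replicate 1. Chance gives such a sample in about 1 of 20 groups, and 2 of 44 is near that share. Tgif1, the Smad co-repressor, had 8.14 there and 6.84 to 6.99 in the other old samples. Acvr2a, an activin receptor, had 7.18 there and 8.004 to 8.048 in the others. Smad2 was also highest in that sample (8.82), without passing the same criterion.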

How the results depend on the processing

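Under 18 alternatives (17 for Tgfb1, Tgfb3 and Tgfbr3, which the filter of the dimmest 50% removed), the sort differences of Tgfb1, Tgfb2, Tgfbr1 and Skil passed in every one, with ranges of -1.17 to -1.01, 0.74 to 1.11, -2.93 to -2.40 and -2.83 to -2.28. Tgfbr2 passed in 17 and Tgfb3 in 9. All genes called in the sort comparison numbered 3390 (1533 higher, 1857 lower), 5242 with all probe sets, 5736 with array weights (3035 higher, 2701 lower) and 1841 without both choroid plexus-high samples, which also left 14 of the 22 pathway genes called. Calls in the age comparison numbered 3 over all genes, 9 and 8 without the dimmest 50% of genes and with all probe sets, 5 with mean probe sets, 0 with only 2 groups, variance trend or quantile normalization, 20 with array weights, 5 by the permutation test, 5 without both choroid plexus-high samples, 1 without both 4-month-old samples, and 0 to 9 without 1 replicate. None of these age calls was a member.

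Some differences that were not called changed sign, among them those of Tgfbr1 (-0.25) and Skil (-0.18) in the age comparison. Why they did was not tested. In the sort comparison Smad2 was 0.026 after quantile normalization and -0.23 to 0.048 without 1 replicate. In the age comparison Tgfb1 was -0.063 after quantile normalization, -0.071 without both choroid plexus-high samples and -0.071 to 0.090 without 1 replicate. Without 1 replicate Tgfb2 ran from -0.14 to 0.022, Tgfbr1 from -0.44 to 0.097, Tgfbr3 from -0.053 to 0.18 and Skil from -0.45 to 0.058. Without both 4-month-old samples Tgfbr1 was 0.097 and Skil 0.058, and Smad3 was -0.053 with array weights. Same-numbered samples of the young fractions share the age at replicates 1 and 3 (7 and 4 months) but not at 2, and no label ties them to 1 animal (same-numbered deviations correlated at 0.124, 0.021 and 0.191, and not every sample correlated best with its own number). With the replicate number as a block 2824 genes were called, with 6 members as before, and Vasn, Cd109, Eng, Pmepa1 and Nedd4l were not (limma adjusted p = 0.103, 0.131, 0.105, 0.0654 and 0.0709).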
